A study of Mus musculus with 54 samples.

Results

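The DNA break signalling and repair genes followed here are 35 genes picked by name, and all 35 were found among the 13611 genes of the deposited expression table. They were measured in 54 libraries of polyadenylated RNA, of which 40 came from organs of C57B6 mice (thymus, spleen, small intestine and large intestine, 10 each) and 14 from NIH3T3 cells, an established line of mouse embryonic fibroblasts. Each tissue had 1 untreated library, called 0 h here, and 1 library at each hour from 1 to 8 h and at 24 h after gamma irradiation at a dose of 10 Gy. The NIH3T3 course had the same hours and also 9, 10, 11 and 12 h. The labels name no genetic alteration in any group, and say nothing of the age of the mice. The study's title asks how p53 dynamics differ between tissues and relate to radiation sensitivity, and the comparisons below ask how the transcripts of the break repair genes stood over that course in each tissue.

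A double-strand break is sensed by the MRN complex (Mre11a, Rad50 and Nbn) or by the Ku dimer (Xrcc5 and Xrcc6), and is signalled by the kinases Atm, Atr and Prkdc, which phosphorylate the histone variant H2afx around the break and act through Chek1 and Chek2. Breaks are then rejoined directly by end joining, with Ku, Prkdc, Xrcc4 and Lig4, or resected and copied from the sister chromatid by homologous recombination, with Brca1, Brca2 and Rad54l. Recombination and interstrand crosslink repair serve cells in S and G2 phase, and their genes are transcribed with the cell cycle, whereas end joining works through the cycle and also joins the antigen receptor gene segments of developing lymphocytes in the thymus. These proteins are controlled to a large extent by phosphorylation, ubiquitin and recruitment to the break, which transcript levels do not show.

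Levels are given in FPKM, a fragment count divided by transcript length and by the library's mapped fragments, so a level is a share of its library and not an amount per cell. Changes are given as log2 differences of FPKM + 1 with their standard error (SE), which understates the change of genes of low level. Hours were grouped into windows, and limma's test with Benjamini-Hochberg adjustment over all genes with a mean of at least 1 FPKM in that system called a gene at a two-sided adjusted p below 0.05. The windows were 0 h, 1-2 h, 3-5 h, 6-8 h and 24 h, with 9-12 h in NIH3T3. The spread was taken within them, so the SE and p-value of a 1-5 h mean leave out the change from 1-2 h to 3-5 h. Nothing in the labels says that the hours came from separate animals or cultures. The p-values thus reflect only how these libraries scatter within windows, which may be technical or hold change between hours. The 0 h and 24 h windows hold 1 library each, and only the 0 h library was unirradiated, so time and handling cannot be told apart from irradiation. Without the number of fragments per library, the depth is unknown and no level carries a counting interval. The relative depth read from the smallest values differed up to 4.3-fold among thymus libraries, where the 0 h library was the deepest and the 8 h library the shallowest, and 2.0- to 2.5-fold in the other systems. This reading of depth is rough, because it rests on 19.8% to 40% of the low genes in a library.

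The irradiated libraries matched their labels by 2 p53 targets. Cdkn1a, the cell cycle inhibitor p21, stood at 9.9 FPKM in the 0 h thymus library and between 48.3 and 319.8 in the irradiated ones, and in spleen at 4.4 against 135.9 to 311.4. In small intestine, large intestine and NIH3T3 every irradiated library also lay above 0 h for Cdkn1a. Mdm2, the ubiquitin ligase of p53, was above its 0 h level in every irradiated library of all 5 systems. No T cell marker was at 0 in any thymus library, no B cell marker in any spleen library and no fibroblast marker in any NIH3T3 library. Libraries that stood apart were the 24 h thymus library, with a summed enterocyte marker level of 8680 FPKM against 5.62 to 28.25 in the other thymus libraries, the 6 h spleen library, with a summed pancreas marker level of 48350 FPKM, and the 2 h large intestine library, with an enterocyte sum of 31230 against 104 to 2614. The 0 h large intestine library had a keratinocyte marker sum of 27.65 FPKM against 1.19 to 2.883 in the irradiated ones, and as the only untreated library of that tissue it cannot be left out.

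Before irradiation most members were at their highest in thymus. Of the 35, 25 had their highest 0 h level in thymus, 5 in spleen, 3 in NIH3T3 and 1 in each intestine, as single libraries with no replicate. The same count was not made over all genes, so it cannot be called particular to the members. Xrcc6, the Ku subunit known as Ku70, stood at 148 FPKM in thymus against 23.3 in spleen, 17.7 in NIH3T3, 16.7 in large intestine and 12.9 in small intestine. H2afx was also highest in thymus, at 88.6 FPKM, with 34.7 in NIH3T3, then 23.4 in spleen, 16.6 in small intestine and 14.5 in large intestine. Lig4, the ligase that seals end joining, stood at 20.9 FPKM in thymus and at 2.86 to 8.44 elsewhere. The partner of Xrcc6 did not share its order: Xrcc5, Ku80, was highest in NIH3T3 at 25.8 FPKM and stood at 14.5 in thymus. The kinases Atm, Atr and Prkdc were highest in spleen, though Atr stood at 6.54 FPKM there and at 6.53 in thymus. Recombination and crosslink genes were at low levels in the intestines, where Brca1 stood at 0.806 and 0.997 FPKM, Fanci at 0.582 and 0.995, and Palb2 was listed at 0. In RefSeq's annotation of GRCm38.p6, Xrcc6 spans chr15:81987833-82040085, Xrcc5 chr1:72307417-72394953, H2afx chr9:44334715-44336077, Chek1 chr9:36708482-36726658, Brca1 chr11:101488761-101551955 and Mdc1 chr17:35841495-35859670. All 35 members passed the filter on low levels in thymus, 34 in NIH3T3 (all but Palb2), 33 in spleen (all but Exo1 and Bard1), 26 in small intestine and 23 in large intestine.

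**Figure D1:**
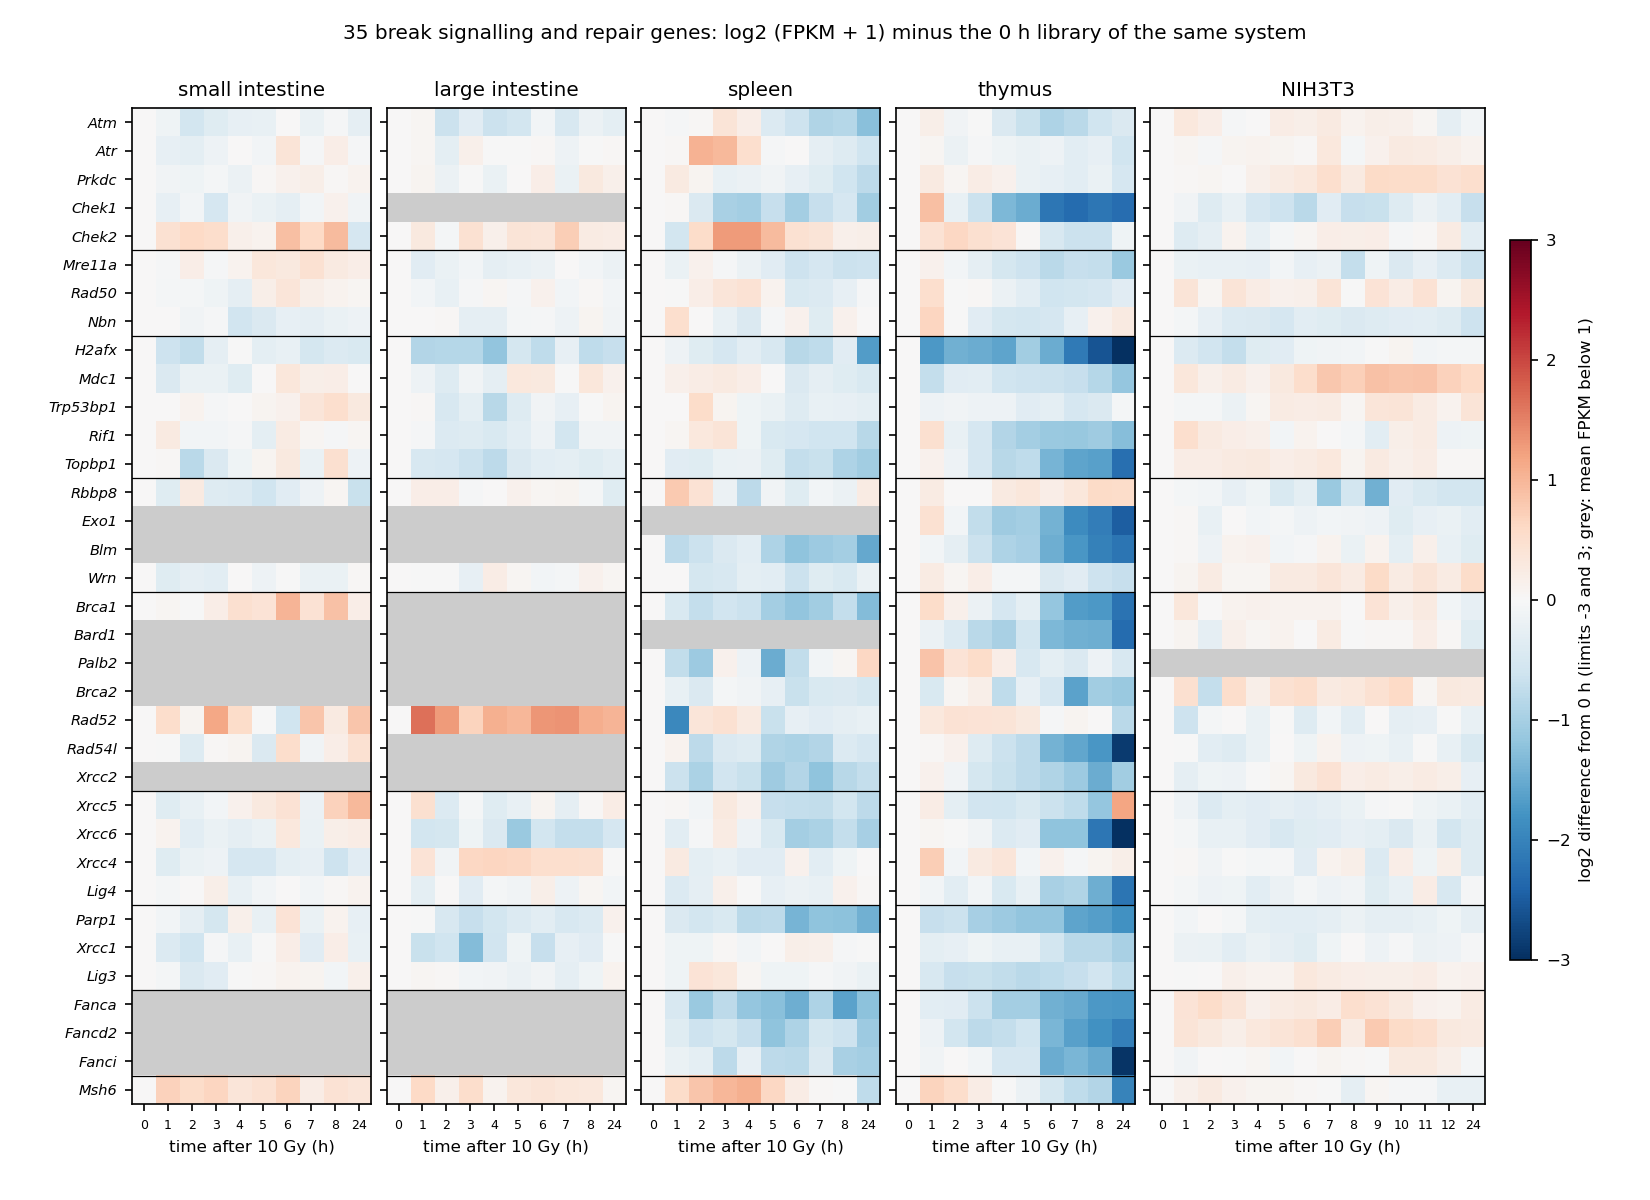
Heat map of the 35 members (rows, grouped by role and separated by lines) in every library (columns, hours after 10 Gy, evenly spaced and so not to scale) of the 5 systems, as log2(FPKM + 1) minus the 0 h library of the same system, with colours limited to -3 and 3. Grey rows had a mean below 1 FPKM in that system; the thymus panel darkens towards lower values from 6 h to 24 h, the spleen panel less so, and the intestines and NIH3T3 show smaller differences of both signs, with Rad52 in large intestine above 0 h in all 8 libraries from 1 to 8 h.

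The thymus held the broadest change, and it separated the later hours from the earlier ones. From 1-5 h (n = 5) to 6-8 h (n = 3), 25 of 35 members fell and 0 rose, and 0 rose at an unadjusted p below 0.05 in limma as well. The background in this comparison was 13.4% of 12426 genes called lower and 18.6% called higher. The members' median log2 change was -0.61, beside -0.002 over all genes. For 23 of 35 members every 6-8 h library lay below every 1-5 h library, as was so for 14.3% of all genes, and no member had its later libraries above the earlier ones, as 19% of genes had.

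The damage kinases fell in 4 of 5 members, and Chek1, the checkpoint kinase downstream of Atr, had the largest change of all 35. Chek1 stood in thymus at 12.3 FPKM at 0 h, at 23.8, 10.3, 7.42, 4.2 and 3.74 from 1 to 5 h, at 1.95, 1.67 and 1.93 from 6 to 8 h and at 1.72 at 24 h. The 1 h library was the highest, each of the 6-8 h libraries was below each earlier one, and the 24 h library lay among them. The change from 9.89 ± 8.21 (SD, n = 5) to 1.85 ± 0.154 FPKM (SD, n = 3) was -1.66 ± 0.21 on the log2 scale (SE, limma adjusted p = 2.49e-06). Chek2, the checkpoint kinase downstream of Atm, fell by 0.98, and Atm by 0.57. Atm was at 7.38 FPKM at 0 h, at 8.40, 6.82, 7.36, 5.18 and 4.23 from 1 to 5 h, at 3.41, 3.81 and 4.52 from 6 to 8 h and at 5.20 at 24 h. Its late libraries overlapped the 5 h one. Prkdc, the catalytic subunit of DNA-PK, fell by 0.35 between windows whose levels spanned 3.58 to 5.28 and 3.21 to 3.52 FPKM. Atr was not called, at -0.15.

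Homologous recombination genes fell in 5 of 7 members. Brca1, which directs resected ends into recombination, stood at 9.25 FPKM at 0 h, at 14, 10.5, 8.06, 6.21 and 7.42 from 1 to 5 h, at 3.61, 2.22 and 2.13 from 6 to 8 h and at 1.22 at 24 h. It was highest at 1 h, and no late library overlapped an early one. Its mean passed from 9.24 ± 3.09 to 2.65 ± 0.83 FPKM (SD, n = 5 and n = 3), a change of -1.46 ± 0.17 (limma adjusted p = 1.18e-06). Rad54l, a motor protein of recombination, stood at 10.9 FPKM at 0 h, at 11.3, 12.1, 8.20, 6.69 and 5.91 from 1 to 5 h, at 3.47, 3.02 and 2.56 from 6 to 8 h and at 0.626 at 24 h. The 1 and 2 h libraries were near 0 h, and the windows were again apart, with a change of -1.25. Bard1, the partner of Brca1, fell by 0.84, Brca2, a mediator of recombination, by 0.80, and Xrcc2, which also acts in recombination, by 0.77. Palb2, the bridge between Brca1 and Brca2, had -0.60 and Rad52 had -0.35, neither called. The Brca2 call was lost when thymus was fitted alone (limma adjusted p = 0.0666).

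Resection enzymes and crosslink repair moved the same way. Exo1, a long-range resection nuclease, stood at 5.07 FPKM at 0 h, at 7.30, 4.75, 2.61, 1.91 and 1.98 from 1 to 5 h, at 1.28, 0.650 and 0.453 from 6 to 8 h and at 0.0989 at 24 h. Each late library was below each early one, and the change was -1.29 ± 0.17 (limma adjusted p = 3.95e-06). The helicases Blm and Wrn fell by 1.16 and 0.54, whereas Rbbp8, CtIP, which starts resection, was not called at 0.19. Fanci, which with Fancd2 forms the clamp of the Fanconi anaemia pathway, stood at 9.29 FPKM at 0 h, at 8.60, 9.46, 8.77, 6.24 and 6.20 from 1 to 5 h, at 2.64, 2.97 and 2.59 from 6 to 8 h and at 0.338 at 24 h. Its 3 early libraries from 1 to 3 h were near the 0 h level, and the late window lay well apart with a change of -1.23. All 3 Fanconi genes fell, Fancd2 by 1.06 and Fanca, of the core ubiquitin ligase, by 0.89.

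The end joining genes were split by the threshold, with Xrcc6 and Lig4 called and Xrcc5 and Xrcc4 not. Xrcc6 stood in thymus at 148 FPKM at 0 h, at 155, 148, 138, 111 and 117 from 1 to 5 h, at 63.9, 64.1 and 32.1 from 6 to 8 h and at 13.2 at 24 h. The mean passed from 134 ± 19.4 to 53.4 ± 18.4 FPKM (SD, n = 5 and n = 3), a change of -1.37 ± 0.21 (limma adjusted p = 2.71e-05). Xrcc5 stood at 14.5 FPKM at 0 h, at 17.2, 11.6, 9.43, 9.25 and 10.2 from 1 to 5 h, at 8.93, 8.20 and 5.97 from 6 to 8 h and at 34.1 at 24 h, and its change between the windows was not called (-0.51, limma adjusted p = 0.0745). For Xrcc5 as for Xrcc6, each 6-8 h library lay below each 1-5 h one. Lig4 fell by 0.89, from 14.9 to 19.9 FPKM at 1-5 h to 6.90 to 10.7 at 6-8 h, while Xrcc4, its scaffold, was not called at -0.18. So the partners within Ku and within the ligase complex were on different sides of the threshold, which is no test of their difference.

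Among the remaining roles, the break sensing complex fell in 2 of 3 members (Rad50 by 0.56 and Mre11a by 0.47) and Nbn was not called at -0.05. The chromatin mark and its mediators fell in 3 of 5: Topbp1, the activator of Atr, by 1.11, Rif1, which shields ends from resection, by 0.68, and H2afx by 0.61. Mdc1, the reader of phosphorylated H2afx, and Trp53bp1, which favours end joining, were not called at -0.22 and -0.24. The H2afx call was lost without the 7 h library (limma adjusted p = 0.0597) or the 8 h library (0.221), and also when thymus was fitted alone (0.0821). Single-strand break genes fell in 2 of 3, Parp1 by 0.55 and Xrcc1 by 0.49, and the ligase Lig3 had 0.01. Msh6, of mismatch recognition, fell by 0.98. The calls of Atm (without the 1, 6 or 7 h library), Prkdc (without the 1, 3, 6, 7 or 8 h library), Parp1 (8 h), Rif1 (1 h) and Xrcc1 (3, 7 or 8 h) were lost in the same way, and 21 to 25 members were called with any 1 library left out.

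**Figure D2:**
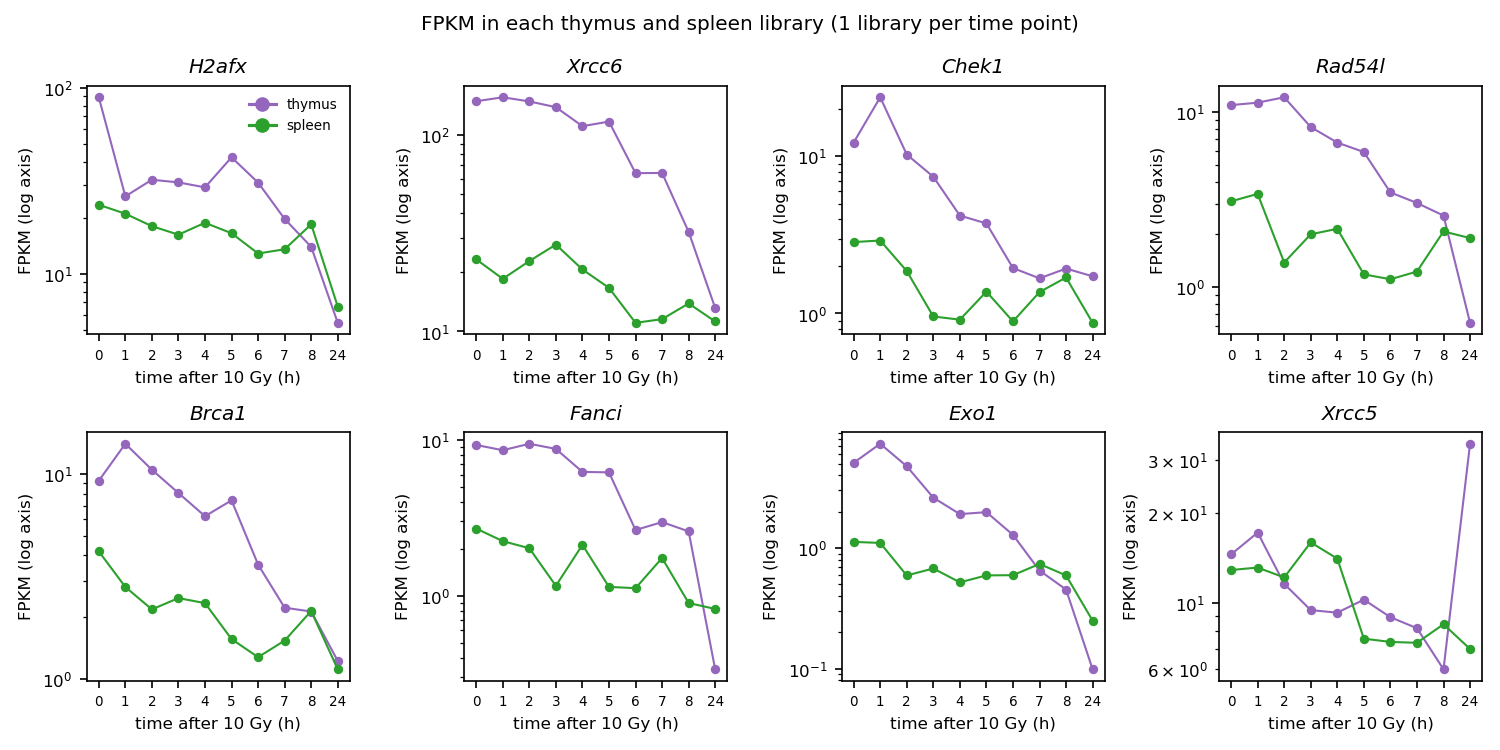
Level in FPKM (log axis) of 8 members in each thymus (purple) and spleen (green) library against hours after 10 Gy, evenly spaced so that 24 h follows 8 h and the axis is not to scale. In thymus H2afx is already lower at 1 h, Chek1, Rad54l, Brca1, Fanci, Exo1 and Xrcc6 are lower in each 6-8 h library than in any 1-5 h library, and Xrcc5 alone stands above 0 h at 24 h.

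At 24 h the thymus library lay further from 0 h, with 23 of 35 members lower and 1 higher. In the same comparison 18.6% of genes fell and 26.4% rose, and the median log2 change was -1.12 for the members against 0.15 over all genes. Under quantile normalization the all-gene median became -0.14, the members' median became -1.60 and 26 members were called, 25 of them lower. H2afx changed most, from 88.6 to 5.44 FPKM (-3.80 ± 0.37, limma adjusted p = 3.48e-08). It was followed by Xrcc6, from 148 to 13.2 FPKM (-3.40 ± 0.40, limma adjusted p = 5.59e-07), Fanci, from 9.29 to 0.338 (-2.94 ± 0.33, limma adjusted p = 2.22e-07), and Rad54l, from 10.9 to 0.626 (-2.88 ± 0.42, limma adjusted p = 7.89e-06). The other falls ran from Exo1 at -2.47 to Wrn at -0.69. All 3 Fanconi genes, all 3 single-strand break genes, 5 of 7 recombination genes and 4 of 5 chromatin genes fell. The Brca2 call at 24 h was lost with a pseudocount of 0.1 (limma adjusted p = 0.113) or with thymus fitted alone (0.141), and that of Xrcc2 with the pseudocount (0.084).

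The exceptions at 24 h included the upstream kinases. Of the 5 damage kinases only Chek1 was called lower (-2.28, limma adjusted p = 7.62e-05), and Atm (-0.44), Atr (-0.60), Prkdc (-0.51) and Chek2 (-0.13) were not called. Xrcc5 was the 1 member that rose (1.18 ± 0.42, limma adjusted p = 0.0245), from 14.5 to 34.1 FPKM, in the same library in which its partner Xrcc6 was at its lowest. This library carried the enterocyte transcripts named above. Over 251 genes of high level in the small intestine its median ratio to the 24 h small intestine library was 10.5%, and Xrcc5 stood at 7.19 FPKM in that intestinal library. With that share of the small intestine taken off, a setting chosen after the data were seen, 24 members were again called, 23 lower and 1 higher, and Xrcc5 changed by 1.30. Because 24 h and 0 h are single libraries, the spread for this test came from the windows with several libraries, and the 2 libraries are assumed to vary like them.

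Against the 0 h library, the whole 1-8 h course of the thymus held fewer calls: 11 of 35 members fell and 0 rose (0 also at an unadjusted p below 0.05 in limma), beside 3.9% of genes that fell and 8.24% that rose. This comparison and the one at 24 h share the 0 h library. H2afx had the largest change (-1.69 ± 0.28, limma adjusted p = 0.000327). It stood in thymus at 88.6 FPKM at 0 h, at 26.0, 31.9, 30.9, 29.1 and 42.2 from 1 to 5 h, at 30.8, 19.7 and 13.9 from 6 to 8 h and at 5.44 at 24 h. All 8 libraries of the course lay below 0 h from the 1 h library on, with a mean of 28.1 ± 8.50 FPKM (SD, n = 8). Its family holds many similar histone genes, and the sources used here do not say how reads were shared among them. Parp1, which binds strand breaks and makes poly(ADP-ribose), fell by 1.13 ± 0.22 (limma adjusted p = 0.00133). It was at 36.8 FPKM at 0 h and between 11.1 and 23.4 from 1 to 8 h, again with no overlap. Chek1 fell by 1.18 ± 0.30 (limma adjusted p = 0.0108) and Blm by 1.02 ± 0.25 (limma adjusted p = 0.00926), and the remaining calls were Fanca, Exo1, Fancd2, Bard1, Topbp1, Lig3 and Mdc1. Those of Fancd2 and Topbp1 were lost without the 7 or 8 h library, and that of Mdc1 without any of the 4 to 8 h libraries. The Chek1 call was lost when thymus was fitted alone (limma adjusted p = 0.094), and Blm's with a pseudocount of 0.1 (limma adjusted p = 0.103).

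The 1 h thymus library bears on this count. Of 35 members 17 had their highest level of the whole course at 1 h, as 15.2% of all genes did, among them Chek1, Brca1, Exo1, Msh6, Atm, Prkdc and Xrcc6. Without the 1 h library 17 members were called lower at 1-8 h in place of 11. Msh6 was at 43.2 FPKM at 0 h, 69.3 at 1 h and 22.9 at 8 h, and its 1, 2 and 3 h libraries lay above 0 h while the 5 to 8 h ones lay below it. 11 members were below 0 h in all 8 libraries of the course and 1, Rbbp8, was above it in all 8, where 15.7% and 16.8% of all genes were. At the far end, 22 of 35 members were at their lowest at 24 h, as were 24.3% of genes.

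Genes related to the members were read from lists of the same kind. Of 61 other break signalling and repair genes tested in thymus, 37 fell and 1 rose from 1-5 h to 6-8 h. Among them were Rad51ap1 (-1.76), Clspn, the mediator of Chek1 activation (-1.69), and the resection nuclease Dna2 (-1.49), and Parp3 rose by 0.59. At 24 h 34 fell, among them Clspn (-3.77), Rad51ap1 (-3.10) and Tipin (-2.63), and 2 rose, Dclre1a (1.22) and Parp3 (0.87). At 1-8 h against 0 h 8 fell, among them Timeless (-1.27) and Tipin (-1.26), partners at the replication fork, with Clspn (-0.90) and Rpa1 (-0.84).

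Levels of other cell types and of the cell cycle moved with these changes in thymus. Of 28 replication genes, 28 fell from 1-5 h to 6-8 h with a median of -1.57, 27 fell at 24 h with a median of -2.60 and 19 fell at 1-8 h. Of 25 mitotic genes 13, 25 and 15 fell in those comparisons. The summed level of 9 T cell markers was 2757 FPKM at 0 h, 2171 to 2744 at 1-5 h, 1226 to 1553 at 6-8 h and 318.9 at 24 h, and 7 of 9 fell at 6-8 h and 9 of 9 at 24 h. Macrophage markers summed to 582.9 FPKM at 0 h, to 1001 to 1207 at 6-8 h and to 2021 at 24 h, with 5 and 7 of 8 rising. Neutrophil markers summed to 115.6 FPKM at 0 h, up to 1788 at 8 h and 257.9 at 24 h. The 35 members summed to 660.7 FPKM at 0 h, 263.6 at 8 h and 227.8 at 24 h. In such bulk tissue fewer cells of a type and less RNA per cell cannot be told apart, and the part of these markers in the members' changes was not tested.

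**Figure D3:**
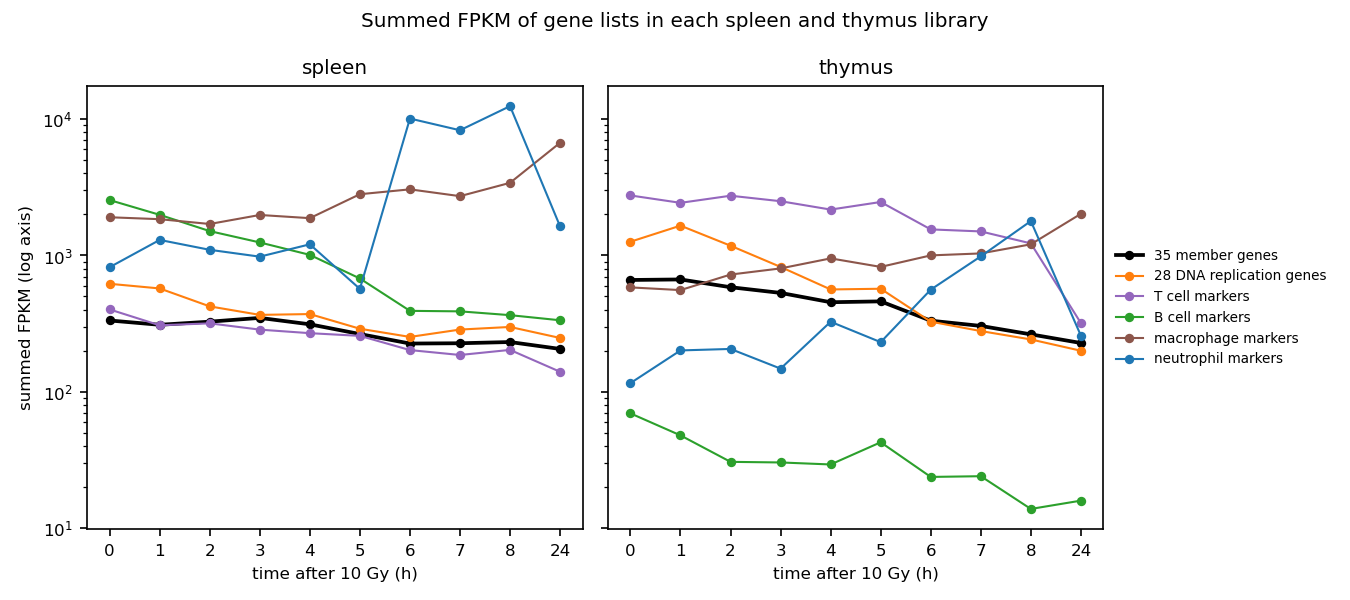
Summed FPKM (log axis) of the 35 members, 28 replication genes and the marker lists of T cells, B cells, macrophages and neutrophils in each library of spleen and thymus, against hours after 10 Gy (evenly spaced, not to scale). In thymus the member sum goes from 660.7 at 0 h to 227.8 at 24 h, the T cell sum from 2757 to 318.9 and the macrophage sum from 582.9 to 2021; in spleen the B cell sum goes from 2550 to 334.4.

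In spleen the same comparison called fewer members, and the difference from thymus was not tested. From 1-5 h (n = 5) to 6-8 h (n = 3), 13 of 33 members fell and 0 rose (0 rose at an unadjusted p below 0.05 in limma), beside 12.2% of 11791 genes that fell and 15.4% that rose. The median was -0.31 for the members and 0.02 for all genes. The calls lay among the kinases (3 of 5), the MRN complex (2 of 3), chromatin mediators (3 of 5) and Ku (Xrcc6 and Xrcc5). Blm, Parp1 and Msh6 were called as well, and none of 6 recombination or 3 Fanconi genes was. The calls of Xrcc5, Blm, Topbp1 and Prkdc, of -0.60 to -0.38, were each lost when certain single libraries were left out. In 13 of 33 members the windows did not overlap, with the late one lower, beside 10.7% of genes.

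Atm had the largest change in spleen. It stood at 8.91 FPKM at 0 h, at 8.66, 9.11, 11.9, 10.3 and 6.42 from 1 to 5 h, at 5.43, 4.27 and 4.50 from 6 to 8 h and at 3.17 at 24 h. The 3 and 4 h libraries were the highest, and the late libraries lay below every early one. The change was -0.82 ± 0.18 (limma adjusted p = 0.00189). Xrcc6 stood in spleen at 23.3 FPKM at 0 h, at 18.5, 22.8, 27.7, 20.7 and 16.7 from 1 to 5 h, at 11.1, 11.6 and 13.9 from 6 to 8 h and at 11.2 at 24 h, a change of -0.74 ± 0.21 between the windows (limma adjusted p = 0.0105). Msh6 fell by 0.73 ± 0.14 (limma adjusted p = 0.000498) and Atr by 0.72 ± 0.19 (limma adjusted p = 0.00698), the latter not when spleen was fitted alone (limma adjusted p = 0.0964).

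Several of these members stood above 0 h in some early libraries of the spleen. Msh6 was at 14.9 FPKM at 0 h, at 32.3 at 4 h and at 14.8 at 8 h, and Atr at 6.54, 14.6 at 2 h and 4.73 at 8 h. Chek2, chosen here after its values were seen, stood at 7.6 FPKM at 0 h, 4.91 at 1 h, 19.8 at 3 and 4 h and 8.62 at 8 h. Of 33 members 8 were at their highest at 3 h, where 4.15% of genes were: Atm, Chek2, Lig4, Mdc1, Rad52, Rif1, Xrcc5 and Xrcc6. The 3 h level of each is a single library with no replicate.

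Against 0 h, 12 of 33 members fell in spleen at 24 h and 0 rose (0 rose at an unadjusted p below 0.05 in limma), beside 7.47% and 13.2% of genes, with a median of -0.61 for the members and 0.09 for all genes. H2afx stood at 23.4 FPKM at 0 h, at 21.0, 18, 16.2, 18.8 and 16.5 from 1 to 5 h, at 12.8, 13.5 and 18.4 from 6 to 8 h and at 6.65 at 24 h, a change of -1.68 ± 0.37 at 24 h (limma adjusted p = 0.00312). All irradiated libraries were below 0 h, and the 24 h one was below all others. Blm, the Bloom helicase, stood at 5.16 FPKM at 0 h, at 2.58, 2.93, 3.54, 3.91 and 2.24 from 1 to 5 h, at 1.65, 1.88 and 2.03 from 6 to 8 h and at 1.12 at 24 h (-1.54 ± 0.34, limma adjusted p = 0.00289). Parp1 stood at 50.0 FPKM at 0 h, at 36.7, 33.6, 35.9, 28.1 and 28.5 from 1 to 5 h, at 18.4, 21.0 and 20.6 from 6 to 8 h and at 17.7 at 24 h (-1.45 ± 0.29, limma adjusted p = 0.00131). Both genes were below 0 h in every later library. Brca1 stood at 4.18 FPKM at 0 h, at 2.80, 2.18, 2.47, 2.34 and 1.56 from 1 to 5 h, at 1.27, 1.54 and 2.14 from 6 to 8 h and at 1.11 at 24 h (-1.30 ± 0.33, limma adjusted p = 0.00845). The other calls were Atm at -1.25, all 3 Fanconi genes, Topbp1, Prkdc, Msh6 and Mre11a. The count was 7 with a pseudocount of 0.1 and 6 with spleen fitted alone.

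At 1-8 h against 0 h in spleen, 10 of 33 members were at an unadjusted p below 0.05 in limma (2 higher, 8 lower), beside 23.3% of genes. After adjustment 5 members fell and 0 rose, beside 3.61% and 5% of genes. They were Fanca (-1.10 ± 0.26, limma adjusted p = 0.00803), Parp1 (-0.86 ± 0.22, limma adjusted p = 0.014), Xrcc2 (-0.85 ± 0.23, limma adjusted p = 0.0205), Blm (-0.81 ± 0.25, limma adjusted p = 0.0478) and Brca1 (-0.79 ± 0.25, limma adjusted p = 0.0489). Fanca stood at 3.89 FPKM at 0 h, at 2.50, 1.25, 1.86, 1.20 and 1.07 from 1 to 5 h, at 0.776, 1.58 and 0.613 from 6 to 8 h and at 1.10 at 24 h. Xrcc2 stood at 3.57 FPKM at 0 h, at 1.94, 1.37, 2.07, 1.88 and 1.18 from 1 to 5 h, at 1.47, 0.993 and 1.57 from 6 to 8 h and at 1.81 at 24 h. Both were below 0 h in every irradiated library, at levels near the filter. From 1 to 8 h, 10 of 33 members were below 0 h in all 8 libraries and 0 above, beside 16.6% and 16.3% of genes. The Brca1 call was lost without the 4, 5, 6 or 7 h library (limma adjusted p = 0.0503 to 0.0806) and that of Blm without the 6, 7 or 8 h library (0.0706 to 0.0852). Only Parp1 held with a pseudocount of 0.1 or with spleen fitted alone, where 1 member was called, and 3 were called without the 7 h library. This comparison and the 24 h one share the 0 h spleen library.

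Of the fixed examples not yet given, Chek1 in spleen ran from 0.872 FPKM at 24 h to 2.91 at 1 h with 2.85 at 0 h, and Rad54l from 1.11 to 3.41 with 3.09 at 0 h. Lig4 lay between 1.88 and 3.26 FPKM in all spleen libraries, with 0 h inside that range. None of the 3 was called in spleen. Other break repair genes in spleen fell in 4, 7 and 9 of 55 cases at 1-8 h, 6-8 h and 24 h. Clspn led at 1-8 h and 24 h (-1.05 and -1.66), and the mismatch repair genes Pms2 (-0.71) and Msh3 (-0.51) were among those that fell at 6-8 h.

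Marker levels moved in spleen too. The summed level of 9 B cell markers was 2550 FPKM at 0 h, 677.5 to 1987 at 1-5 h, 364.6 to 392.1 at 6-8 h and 334.4 at 24 h, and 8, 9 and 9 of 9 fell at 1-8 h, 6-8 h and 24 h. Macrophage markers summed to 1907 FPKM at 0 h, 2724 to 3412 at 6-8 h and 6718 at 24 h. Neutrophil markers summed to 819.9 FPKM at 0 h, 8296 to 12470 at 6-8 h and 1634 at 24 h. Erythroid markers summed to 17020 FPKM at 0 h, 4813 to 30830 at 1-5 h, 8133 to 9292 at 6-8 h and 281.1 at 24 h. Of these 9 markers 3, 2 and 9 fell at 1-8 h, 6-8 h and 24 h. T cell markers summed to 401.6 FPKM at 0 h and 140 at 24 h, where 7 of 8 tested fell. Replication genes fell in 10, 9 and 16 of 28 cases at 1-8 h, 6-8 h and 24 h. Their part in the members' changes was not tested. Without the 6 h spleen library and the other libraries that stood apart, 4, 10 and 12 members were called in spleen, and 11 and 25 in thymus at 1-8 h and 6-8 h.

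**Figure D4:**
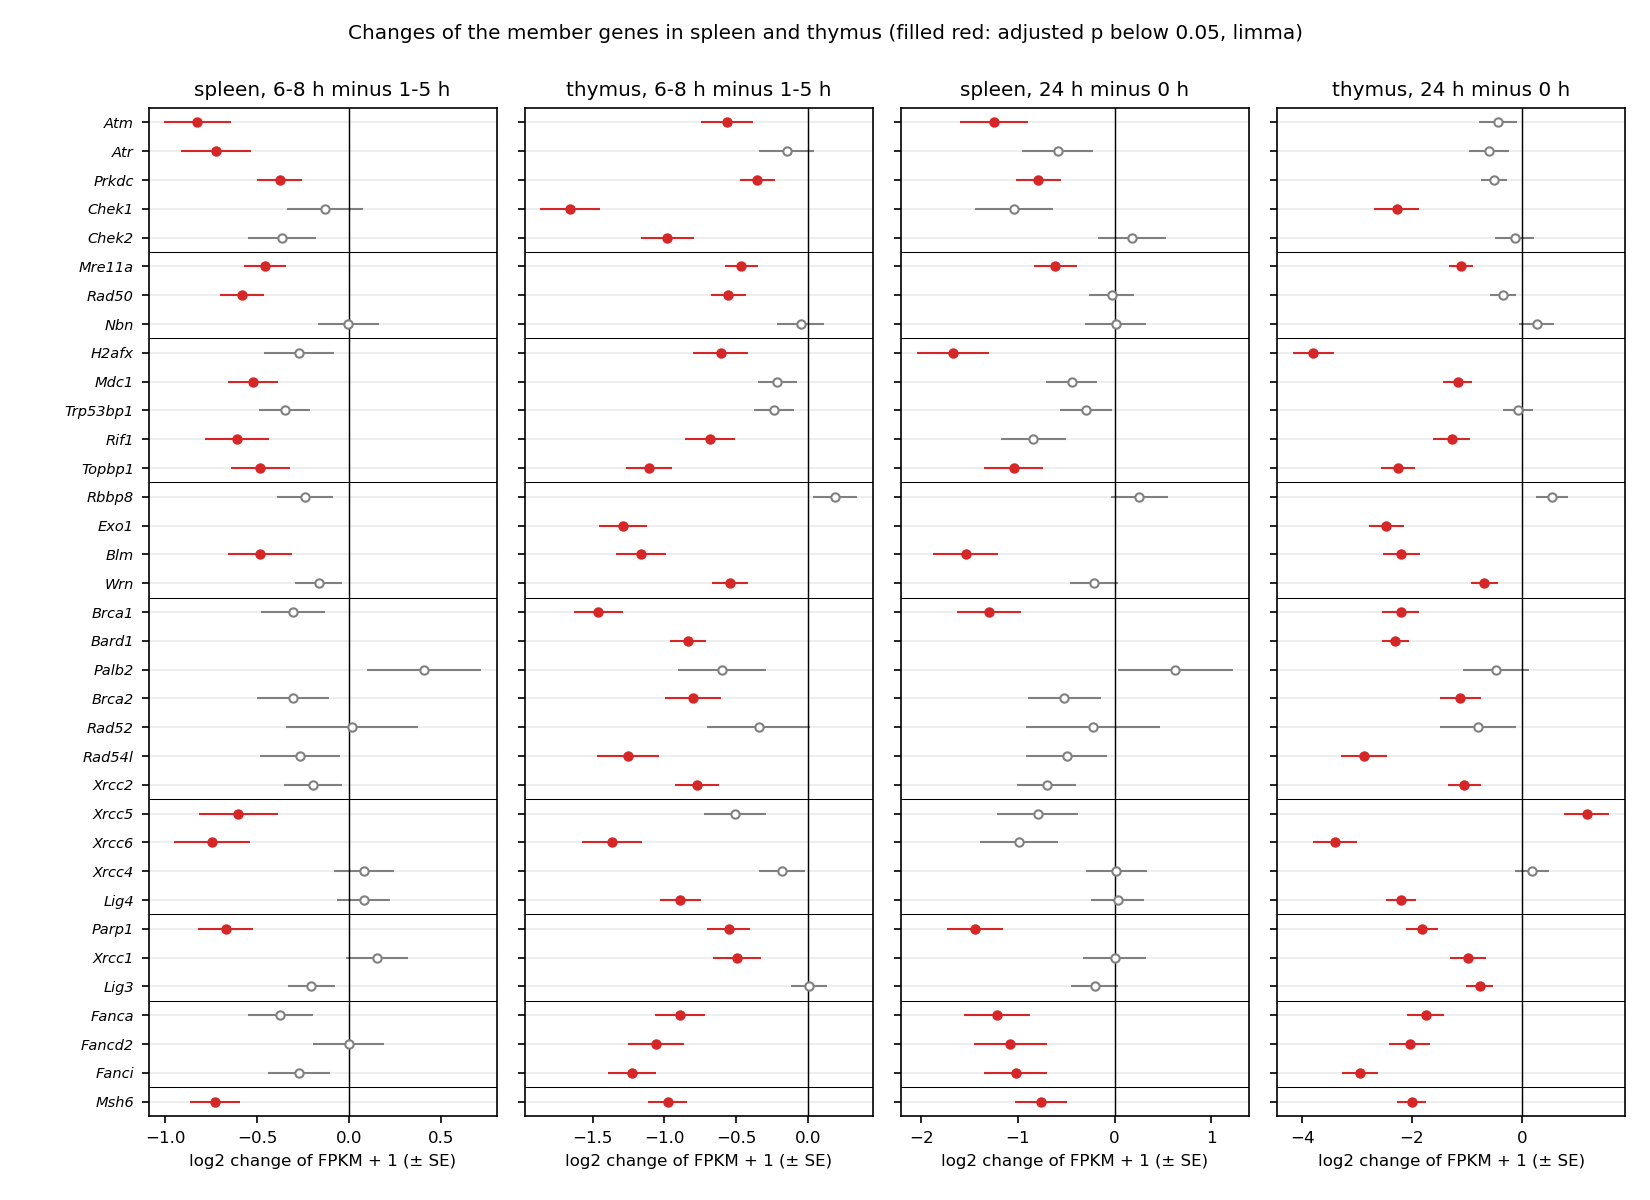
Log2 change ± SE of each member in spleen and thymus, for 6-8 h minus 1-5 h and for 24 h minus 0 h, on the log2(FPKM + 1) scale, with a range of its own on the axis of each panel. Red filled points passed the adjusted p of 0.05; in thymus 25 and 24 members are filled, in spleen 13 and 12, and Xrcc5 in thymus at 24 h is the 1 filled point to the right of 0.

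Over all comparisons Blm and Parp1 were called lower in 6 each and Topbp1 and Fanca in 5 each, so their promoters are shown. All 35 members matched a RefSeq gene, and 25 had a promoter window in the RefSeq table used (GRCm38.p6), which runs from 250 bases before a transcript's start to 50 after it. Each is written 5′ to 3′ on the gene's strand in lower case, with capitals for the letters TTTCGCGC or TTTGGCGC (a form of the E2F site of S phase genes). The letters TTTGAA (the CHR element of G2 and M phase genes) were searched but not capitalised, and none of the windows shown holds them. Both searches covered both strands. The gene's most upstream annotated start lay 150 bases before the start used for Blm, 160 before that for Topbp1, 75 before that for Fanca, and at the same base for Parp1.
Blm, chr7:80534949-80535248, minus strand: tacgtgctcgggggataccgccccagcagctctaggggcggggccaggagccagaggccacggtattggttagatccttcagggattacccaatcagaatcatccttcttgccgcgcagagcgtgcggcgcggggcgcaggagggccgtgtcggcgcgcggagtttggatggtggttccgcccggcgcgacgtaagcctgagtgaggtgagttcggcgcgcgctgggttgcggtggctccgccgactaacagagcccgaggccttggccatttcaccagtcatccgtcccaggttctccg
Parp1, chr1:180568641-180568940, plus strand: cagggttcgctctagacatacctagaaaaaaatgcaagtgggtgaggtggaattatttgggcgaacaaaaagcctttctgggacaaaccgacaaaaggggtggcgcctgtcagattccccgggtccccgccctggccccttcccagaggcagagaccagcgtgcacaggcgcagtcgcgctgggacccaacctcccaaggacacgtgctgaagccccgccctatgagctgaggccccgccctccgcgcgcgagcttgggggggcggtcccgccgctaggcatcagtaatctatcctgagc
Topbp1, chr9:103305077-103305376, plus strand: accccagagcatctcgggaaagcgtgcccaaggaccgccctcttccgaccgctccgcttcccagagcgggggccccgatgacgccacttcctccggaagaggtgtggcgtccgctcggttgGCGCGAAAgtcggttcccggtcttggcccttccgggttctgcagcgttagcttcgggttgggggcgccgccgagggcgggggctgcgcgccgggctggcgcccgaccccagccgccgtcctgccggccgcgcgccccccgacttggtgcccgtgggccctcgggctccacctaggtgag
Fanca, chr8:123318527-123318826, minus strand: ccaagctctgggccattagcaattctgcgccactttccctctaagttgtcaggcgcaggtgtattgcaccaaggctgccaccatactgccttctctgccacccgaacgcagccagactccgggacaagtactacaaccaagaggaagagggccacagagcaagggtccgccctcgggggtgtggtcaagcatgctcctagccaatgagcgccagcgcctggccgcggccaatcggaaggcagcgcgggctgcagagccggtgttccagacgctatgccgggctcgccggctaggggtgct
Capitals appear in Topbp1 alone, where TTTCGCGC stands on the opposite strand. The first capital, read along the gene's strand, is at position -129 from the start. E2F letters were present in 1 of 25 member windows (4%) and in 225 of 27025 windows over all genes (0.833%), and TTTGAA in 1 member window (Bard1, 4%) and in 4893 windows (18.1%). These windows were rich in G and C: Topbp1 had 73.7% and 38 CpG dinucleotides, Blm 66% and 32, Fanca 63% and 19, and Parp1 62% and 20. The median over the 25 members was 59.7% and 22 CpG, beside 52.7% and 7 over all windows. A match is a description of letters, and a missing match says only that these letters are not in this window.

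In the small intestine no member was called in any comparison. At 1-8 h against 0 h limma called 0 of 26, beside 0.298% of 11392 genes that rose and 0.0176% that fell, and 1 member lay higher at an unadjusted p below 0.05. At 6-8 h against 1-5 h it called 0 of 26, beside 0.439% and 0.14%, and 6 members lay higher at an unadjusted p below 0.05. At 24 h it called 0 of 26, beside 0.105% and 0.079%, and 1 lay higher and 1 lower at an unadjusted p below 0.05. Over all genes 6.56%, 12.1% and 6.89% were at an unadjusted p below 0.05 in these comparisons, in either direction. The smallest adjusted p values in these comparisons were 0.584 for Msh6, 0.101 for Mdc1 and 0.676 for Xrcc5. Without the 5 h library 1 member was called at 6-8 h.

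The 6 genes that were higher at 6-8 h without passing the test were Mdc1 (0.48), Brca1 (0.55), Topbp1 (0.45), Chek2 (0.45), Rad50 (0.28) and Trp53bp1 (0.29), and of 26 members 9 were at their highest at 6 h, as 7.66% of genes were. In the same comparison 13 of 25 mitotic genes rose. Mdc1 spanned 1.82 to 2.88 FPKM at 1-5 h and 3.31 to 3.87 at 6-8 h. Brca1 stood at 0.806 FPKM at 0 h and between 0.792 and 2.68 from 1 to 8 h. Chek2 and Msh6 lay above 0 h in all 8 libraries from 1 to 8 h, Chek2 at 4.57 to 8.95 FPKM against 4.19 and Msh6 at 6.05 to 8.80 against 5.05. They were 2 of 26 members, beside 11% of all genes. Another 2, H2afx and Xrcc4, lay below 0 h in all 8, beside 13.1% of genes. The other fixed examples stayed at low levels with 0 h inside or near their range: Atm at 0.845 to 1.73 FPKM, Chek1 at 0.666 to 1.60, Prkdc at 1.01 to 1.55 and Rad54l at 0.587 to 2.08. Xrcc6 lay at 10.3 to 16.3 FPKM, Lig4 at 7.10 to 9.72 and Parp1 at 3.69 to 8.02. Of 51 other break repair genes 1 rose at 1-8 h, Fancl, the ligase subunit of the Fanconi core (1.69, limma adjusted p = 0.0243).

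In the large intestine no member was called either, of 23 tested. Limma called 0 at 1-8 h against 0 h, beside 1.24% of 11854 genes that rose and 0.27% that fell, with 1 member higher and 2 lower at an unadjusted p below 0.05. At 6-8 h against 1-5 h it called 0, beside 0.363% and 0.177%, with 1 member higher at an unadjusted p below 0.05. At 24 h it called 0, beside 0.186% and 0.0759%, with 0 at an unadjusted p below 0.05. The shares of all genes at an unadjusted p below 0.05, in either direction, were 14%, 13.7% and 7.47% in these comparisons. The smallest adjusted p values were 0.196 and 0.724 for H2afx at 1-8 h and 24 h and 0.267 for Mdc1 at 6-8 h. H2afx stood at 14.5 FPKM at 0 h and between 5.86 and 12 from 1 to 8 h, below 0 h in all 8 libraries as in the other 3 tissues, with a change of -0.76 that was not called. Parp1 was also below its 0 h level of 8.99 FPKM in all 8 libraries, at 5.24 to 8.87, and Xrcc6 below 16.7, at 7.18 to 15.1. Msh6 lay above its 0 h level of 7.80 FPKM in all 8, at 8.45 to 12.3. Of 23 members 6 lay below 0 h in all 8 libraries, Rif1, Topbp1 and Xrcc1 being the others, beside 13.2% of genes. Above 0 h in all 8 were 2 members, Msh6 and Rad52, beside 13.3% of genes. The 0 h library used here is the one with the keratinocyte markers. Atm ranged from 1.88 to 3.73 FPKM, Prkdc from 1.56 to 2.58 and Lig4 from 5.19 to 7.89. Chek1, Brca1 and Rad54l were under the filter, at means of 0.926, 0.83 and 0.789 FPKM. Replication genes fell in 5 of 26 cases at 1-8 h.

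The lymphoid organs and the intestines were compared by their 1-8 h changes against 0 h, and their 6-8 h changes were not compared. The test took the average change of the 2 lymphoid organs less the average of the 2 intestines. Each change rests on the single 0 h library of its tissue, which in large intestine is the one with the keratinocyte markers. No member was called, 0 of 23 tested in all 4 tissues, beside 1.92% of 9980 genes called higher in the lymphoid organs and 0.852% lower. An unadjusted p below 0.05 was reached by 17.5% of genes in either direction and by 2 members, both lower. These were Parp1 (-0.74 ± 0.22, limma adjusted p = 0.0631) and Mre11a (-0.39, limma adjusted p = 0.214). The members' median difference was -0.22, beside 0.003 over all genes. The 23 genes tested leave out Chek1, Brca1, Rad54l and others of the larger thymus changes, which were under the filter in the large intestine. 1 member was called when any of 7 libraries was left out: the 3 h small intestine, the 1 or 2 h large intestine, the 1 or 3 h spleen or the 1 or 2 h thymus library. Of 47 other break repair genes Fancl was called, at -1.59 (limma adjusted p = 0.0131).

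In NIH3T3 cells few members were called, and the calls between irradiated windows were all rises. At 1-8 h against 0 h limma called 0 of 34, beside 2.76% of 10385 genes that rose and 1.7% that fell, with 3 higher and 4 lower at an unadjusted p below 0.05 and a smallest adjusted p of 0.0836 for Mdc1. From 1-5 h (n = 5) to 6-8 h (n = 3), 3 rose and 0 fell (1 lower at an unadjusted p below 0.05), beside 0.857% and 1.44% of genes. From 1-5 h to 9-12 h (n = 4), 4 rose and 0 fell (2 lower at an unadjusted p below 0.05), beside 7.04% and 6.52%. At 24 h against 0 h 1 rose and 1 fell (3 higher and 4 lower at an unadjusted p below 0.05), beside 5.64% and 5.4%. In either direction 7, 7, 10 and 7 of 34 members were at an unadjusted p below 0.05 in limma. The shares of all genes were 25%, 20.2%, 29% and 28.4%. The member medians were 0.02, 0.03, 0.04 and -0.18 in this order of comparisons, beside -0.02, 0.001, 0.003 and 0.02 over all genes. From 1 to 8 h, 7 of 34 members lay above 0 h in all 8 libraries and 8 below, beside 20.4% and 22.1% of genes.

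Mdc1 was called in 3 of these comparisons. It stood at 8.94 FPKM at 0 h, at 11.6, 10.0, 10.8, 9.81 and 11.3 from 1 to 5 h, at 13.3, 16.5 and 15.2 from 6 to 8 h, at 17.4, 16.6, 16.8 and 15.2 from 9 to 12 h and at 14.1 at 24 h. Every irradiated library was above 0 h, and each from 6 h on was above each from 1 to 5 h. The change was 0.45 ± 0.09 at 6-8 h (limma adjusted p = 0.0238), 0.58 ± 0.08 at 9-12 h (limma adjusted p = 0.00123) and 0.60 ± 0.17 at 24 h against 0 h (limma adjusted p = 0.0378), the last lost under quantile normalization (limma adjusted p = 0.0682), which left 1 member called at 24 h.

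H2afx followed a dip and a return. It stood in NIH3T3 at 34.7 FPKM at 0 h, at 25.7, 23.1, 20.6, 26.8 and 27.0 from 1 to 5 h, at 31.5, 32.0 and 32.5 from 6 to 8 h, at 34.1, 36.5, 32.7 and 33.3 from 9 to 12 h and at 33.5 at 24 h. The 1-5 h libraries were the lowest, and those from 6 h on were near the 0 h level, so the rise at 6-8 h (0.37 ± 0.09, limma adjusted p = 0.0417) and 9-12 h (0.46 ± 0.08, limma adjusted p = 0.00314) is measured from below 0 h. Xrcc2 stood at 4.04 FPKM at 0 h, at 3.21, 3.58, 3.54, 4.01 and 4.21 from 1 to 5 h, at 5.16, 5.80 and 4.77 from 6 to 8 h, at 5.01, 4.74, 4.99 and 4.70 from 9 to 12 h and at 3.22 at 24 h. Both later windows lay above every 1-5 h library, with 0.41 ± 0.09 (limma adjusted p = 0.0426) and 0.32 ± 0.09 (limma adjusted p = 0.0281). At 9-12 h the Xrcc2 call was lost without the 1, 2, 9, 10 or 11 h library, and under quantile normalization Xrcc2 was called at neither 6-8 h (limma adjusted p = 0.0698) nor 9-12 h (0.0631).

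Prkdc stood at 1.20 FPKM at 0 h, at 1.25, 1.30, 1.22, 1.45 and 1.60 from 1 to 5 h, at 1.73, 2.11 and 1.66 from 6 to 8 h, at 2.25, 2.20, 2.22 and 1.96 from 9 to 12 h and at 2.1 at 24 h. Its level was lowest at 0 h, and the rise at 9-12 h was 0.42 ± 0.10 (limma adjusted p = 0.015). Nbn, the regulatory subunit of MRN, stood at 12.5 FPKM at 0 h, at 11.9, 10.4, 9.24, 9.05 and 8.52 from 1 to 5 h, at 9.90, 9.52 and 9.03 from 6 to 8 h, at 9.26, 9.62, 9.81 and 9.35 from 9 to 12 h and at 7.81 at 24 h. The 0 h library was the highest and the 24 h one the lowest, a fall of -0.62 ± 0.15 (limma adjusted p = 0.0184). The 6-8 h calls rested on few libraries: 0 members were called without the 7 h or the 8 h library and 1 without the 1, 2 or 6 h library. At 9-12 h the count was 3 to 5 when any 1 library was left out.

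**Figure D5:**
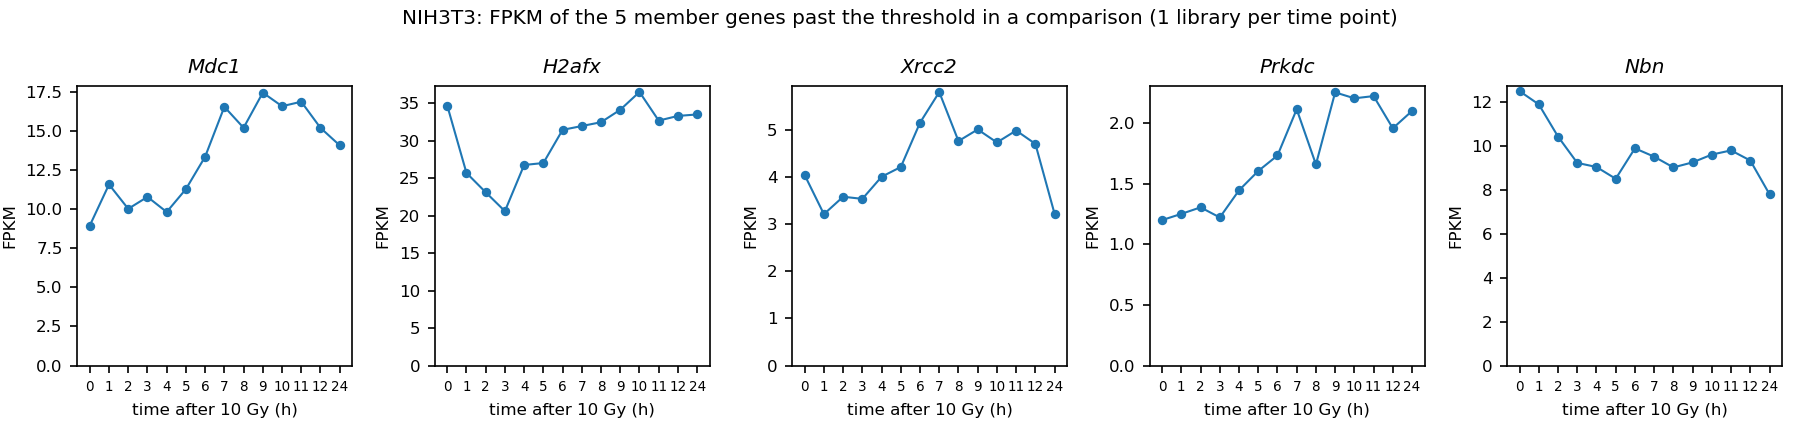
Level in FPKM (linear axis from 0) of Mdc1, H2afx, Xrcc2, Prkdc and Nbn in each of the 14 NIH3T3 libraries against hours after 10 Gy, evenly spaced so that 24 h follows 12 h and the axis is not to scale. Mdc1 climbs from 8.94 at 0 h to 17.4 at 9 h, H2afx dips to 20.6 at 3 h and returns, and Nbn is lowest at 24 h.

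Several members with large changes in thymus were called in no comparison of the fibroblasts. Chek1 ranged in NIH3T3 from 4.08 to 7.89 FPKM with its highest value at 0 h, Brca1 from 4.79 to 8.15, Rad54l from 8.33 to 12.8 and Xrcc6 from 11.7 to 17.7. Atm, Lig4 and Parp1 were not called either, at 2.69 to 4.51, 2.50 to 4.67 and 28.4 to 36.3 FPKM. Differences from thymus were not tested because the line was fitted separately. Of 28 replication genes 3 fell at 1-8 h, 5 at 6-8 h, 13 at 9-12 h and 15 at 24 h. Of 25 mitotic genes 3 fell at 1-8 h and 5 at 24 h, while 4 rose at 6-8 h and 14 at 9-12 h. Of 61 other break repair genes 6 rose and 4 fell at 9-12 h, with Fancg (0.67), Rad51b (0.55) and Eme1 (0.46) among the first and Dna2 (-0.54), Clspn (-0.47), Tipin (-0.43) and Usp1 (-0.32) the second. At 24 h 1 rose, Parp3 (0.75), and 6 fell, led by Tipin (-1.23) and Dna2 (-1.19), at 1-8 h Rad51d (0.80) and Polm (0.38) rose, and at 6-8 h Rad51b rose (0.47) and Clspn fell (-0.50).

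Of the 35 members 5 were called in no comparison of any system: Trp53bp1, Rbbp8, Palb2, Rad52 and Xrcc4. Palb2 passed the filter only in spleen and thymus, at a low level, and was listed at 0 in both intestines at 0 h. The libraries were made without strand information, so reads of a member and of an overlapping antisense gene cannot be told apart.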

How the data were processed

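Polyadenylated RNA of 54 samples was sequenced from unstranded libraries, per the labels' protocols. The deposited table holds 1 FPKM value per gene and library that the authors made with TopHat2 2.1.0, Cufflinks 2.1.1 and the mm10 genome, per the submitters' processing notes; the header names no unit, and FPKM follows from Cufflinks and the values. Members and lists were chosen with earlier results of these data known. Changes were tested on log2(FPKM + 1) with limma 3.58.1 (R 4.3.3, trend, tissue and window means) in 17 comparisons. The spread came from a joint model of the 40 tissue libraries (20 residual df) and a separate one of NIH3T3 (8 df). Genes needed a mean of at least 1 FPKM in the system, and Benjamini-Hochberg adjusted p below 0.05 was called. No column repeated another, and the highest correlation was 0.995. The analysis was tested on simulated data. Named members were those with up to 4 largest called changes in each direction per comparison, plus 8 fixed examples. The alternatives were a pseudocount of 0.1, no filter, separate fits, quantile normalization, other window borders, the hour as a block and leaving out libraries. Some genes of the wider repair list are counted but not reported by name here.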

Additional observations from a re-analysis of the deposited data

Results flagged for a closer look

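In groups of 4 libraries a value was marked when its gap to the nearest other value took most of the group's range (Dixon's criterion). Of 35 members read in the 9-12 h window of NIH3T3, 2 were marked, where chance marks about 1 in 20. Prkdc stood at 1.957 FPKM at 12 h, below 2.204 to 2.253 in the other 3 libraries of that window. Bard1 stood at 4.005 FPKM at 11 h, above 3.426 to 3.456 in the others.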

How the results depend on the processing

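Of 666 values of single members under other settings 602 kept their call and direction, 64 lost the call and 0 reversed, and of 492 with 1 library left out 422 kept it, 70 lost it and 0 reversed. In spleen at 1-8 h 5 members were called, against 1 with a pseudocount of 0.1, 1 with separate fits, 3 with other window borders and 3 with the hour as a replicate block. In spleen at 24 h 12 became 7 with a pseudocount of 0.1 and 6 with separate fits. In thymus at 1-8 h 11 became 5 with a pseudocount of 0.1 and 19 with quantile normalization. In NIH3T3 at 24 h 2 became 1 with quantile normalization. Between lymphoid organs and intestines 0 became 1 without a filter and 1 with quantile normalization. The cause of these shifts was not tested. With 1 library left out at a time the counts ran from 0 to 1 in small intestine at 6-8 h, 3 to 6 in spleen at 1-8 h, 9 to 14 in spleen at 6-8 h, 8 to 17 in thymus at 1-8 h, 21 to 25 in thymus at 6-8 h, 0 to 3 in NIH3T3 at 6-8 h, 3 to 5 in NIH3T3 at 9-12 h and 0 to 1 between organs. They stayed at 0 in both intestines at 1-8 h, in large intestine at 6-8 h and in NIH3T3 at 1-8 h.

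The labels do not say whether organs of the same hour came from the same mouse, so the hour was not taken to pair libraries. Of 48 same-hour pairs of tissues 5 had deviations correlated above 0.1, with a median of 0.023 and a range of -0.086 to 0.285, and the highest were spleen with thymus at 3 h (0.285) and 5 h (0.262). With the replicate block the counts were 12, 25 and 24 in thymus at 1-8 h, 6-8 h and 24 h, and 13 and 12 in spleen at 6-8 h and 24 h. NIH3T3 is a single course and had no block. Leaving out the 24 h thymus library gives no 24 h value, so that setting was not run there. Single libraries at 0 h and 24 h, unknown depth, and levels near 1 FPKM in the intestines limit what could be called.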
